A study of Homo sapiens with 36 samples.

Results

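Type I interferons are secreted cytokines that cells make when they sense foreign nucleic acid. They bind the IFNAR1 and IFNAR2 receptor, the kinases JAK1 and TYK2 become active, and STAT2 is phosphorylated and enters the complex ISGF3 with the DNA-binding protein IRF9. ISGF3 binds a promoter element, the ISRE, and switches on a shared set of antiviral genes, many of which T cells also keep on at a low level without added interferon. The genes described here are 47 of these interferon-stimulated genes, taken by symbol from the 60628 gene identifiers of the count table, and all 47 were found. They comprise 4 transcription factors (IRF1, IRF7, IRF9 and STAT2), 3 sensors of double-stranded RNA (IFIH1, DHX58 and EIF2AK2), 9 regulators of modification or signalling, and 31 effectors.

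The libraries came from 7 established human cell lines of T-cell neoplasms, grown in RPMI with 10% fetal bovine serum and with no interferon or virus named in the labels. H9, MyLa (Myla CD4+ in the labels) and Mac1 are labelled cutaneous T lymphocytes and are called CTCL here, for cutaneous T-cell lymphoma. SUP-T1, CCRF-CEM, MOLT4 and THP6 are labelled acute lymphoblastic leukemia and are called T-ALL here, since the series is on T-cell neoplasms. In each line, libraries labelled GATA-3 knock down, tagged shGATA3, stood beside libraries labelled WT, tagged scramble, which are the controls. GATA3 is the transcription factor that directs T helper type 2 differentiation. There were 3 knockdown and 2 control libraries in H9, 3 and 3 in MyLa, 2 and 2 in Mac1, 3 and 3 in SUP-T1, 3 and 3 in CCRF-CEM, 2 and 2 in MOLT4, and 2 and 3 in THP6, which makes 36 in all. The labels do not say whether replicates were separate cultures or whether every line received the same hairpin. The p-values below therefore measure the spread among these libraries, which may be technical, pooled over all 14 groups in the main fit. The exceptions are the tests on counts summed per line, for CTCL against T-ALL and for a mean over lines. Their p-values measure the spread between lines. In SUP-T1 the label "cell line" carries running numbers, while the titles name SUP-T1 in all 6 libraries.

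Library totals lay between 18624330 and 50626644 expected counts. GATA3 was lower in the knockdown libraries of 6 lines, with log2 fold changes of -1.25 in H9, -0.72 in MyLa, -1.15 in Mac1, -1.45 in MOLT4, -1.06 in THP6 and -0.97 in CCRF-CEM. In SUP-T1 it went against the labels. The libraries labelled knockdown held 81.3, 77.2 and 86.6 CPM of GATA3, and those labelled control held 24.4, 23.6 and 24.2 CPM (log2 fold change 1.76, SE 0.086). SUP-T1 directions below are therefore by label only. Of the 14 T cell markers, those for CD3D, CD3E, CD3G, CD28, LCK and TRBC1 had 0 counts in Mac1, and TRAC was at 9.0 CPM in Mac1 knockdown and 5.19 CPM in Mac1 control libraries. In Mac1 CD5 had 4 counts in knockdown and 2 in control libraries, and CD7 had 3 and 0. None of the 14 was at 0 counts over both arms of any of the 6 other lines, but each line had low ones. Among them, CD2 had 27 and 5 counts in H9 and 40 and 11 in CCRF-CEM, and TRAC had 9 and 18 in THP6. CD28 had 46 and 10 in MOLT4, and TRBC1 had 25 and 31 in SUP-T1 by label. Several were near 0 in MyLa. There CD4 and CD7 each had 0 counts in knockdown and 3 in control libraries, and CD28 had 7 and 0. CD5 had 3 and 1, and LCK had 6 and 1. Markers of other cell types were not low in every line. CD79A was at 228 and 186 CPM in H9 knockdown and control libraries, COL1A1 at 105 and 104 CPM in MyLa, and IL3RA at 77.8 and 66.5 CPM in MyLa, while CLEC4C and LILRA4 were at 0 counts there. EPCAM was at 88.5 and 73.3 CPM in H9 knockdown and control libraries, CDH1 at 86.4 and 99.1 CPM in MyLa, ITGAM at 43.4 and 34.6 CPM in MyLa, and CSF1R at 57.7 and 38.6 CPM in Mac1. None of these 7 was called in the line named. The libraries that stood apart most were in 2 groups, THP6 knockdown and CCRF-CEM control. Over genes with a summed count of at least 20, the mean chi-square was 154.5 between the THP6 knockdown libraries, against 3.67 to 15.5 among the THP6 controls. It was 85.8 and 103 between CCRF-CEM control library 2 and the other CCRF-CEM controls, which had 6.37 between them. To a lesser degree, H9 knockdown library 2 had 25.5 and 34.0 with the other H9 knockdown libraries, which had 5.27 between them. SUP-T1 library 3 labelled knockdown had 24.4 and 32.6 with the others of its group, which had 4.56 between them. The Mac1 knockdown libraries had 24.3 between them, against 8.95 between the Mac1 controls.

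All levels are in CPM, the usual unit of counts scaled to the library total, here with TMM scaling of the totals. A gene was called when its adjusted p in edgeR's quasi-likelihood test, corrected over all 21138 genes tested by the method of Benjamini and Hochberg, was under 0.05. All 47 members passed the filter on low counts, which was set over all 14 groups.

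The control libraries were compared first, to see how much of the module each line kept on without knockdown. All 47 members differed between the controls of the 7 lines, but so did 96.3% of all genes tested, so the difference is not particular to them. The summed level of the 47 genes was 3234 CPM in H9, 2314 CPM in MyLa, 2202 CPM in Mac1, 1858 CPM in THP6, 1709 CPM in MOLT4, 1644 CPM in CCRF-CEM and 906 CPM in SUP-T1. The median member was at 22.1 CPM in H9, 19.1 CPM in MOLT4, 16.9 CPM in THP6, 14.3 CPM in Mac1, 10.3 CPM in CCRF-CEM, 5.23 CPM in MyLa and 1.58 CPM in SUP-T1. By that measure MyLa and SUP-T1 were the low lines. In bulk libraries, fewer cells that express a gene and less RNA per cell cannot be told apart. At least 1 CPM was reached by 43 members in H9, 43 in MOLT4, 41 in THP6, 39 in Mac1, 38 in CCRF-CEM, 32 in MyLa and 26 in SUP-T1.

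**Figure D1:**
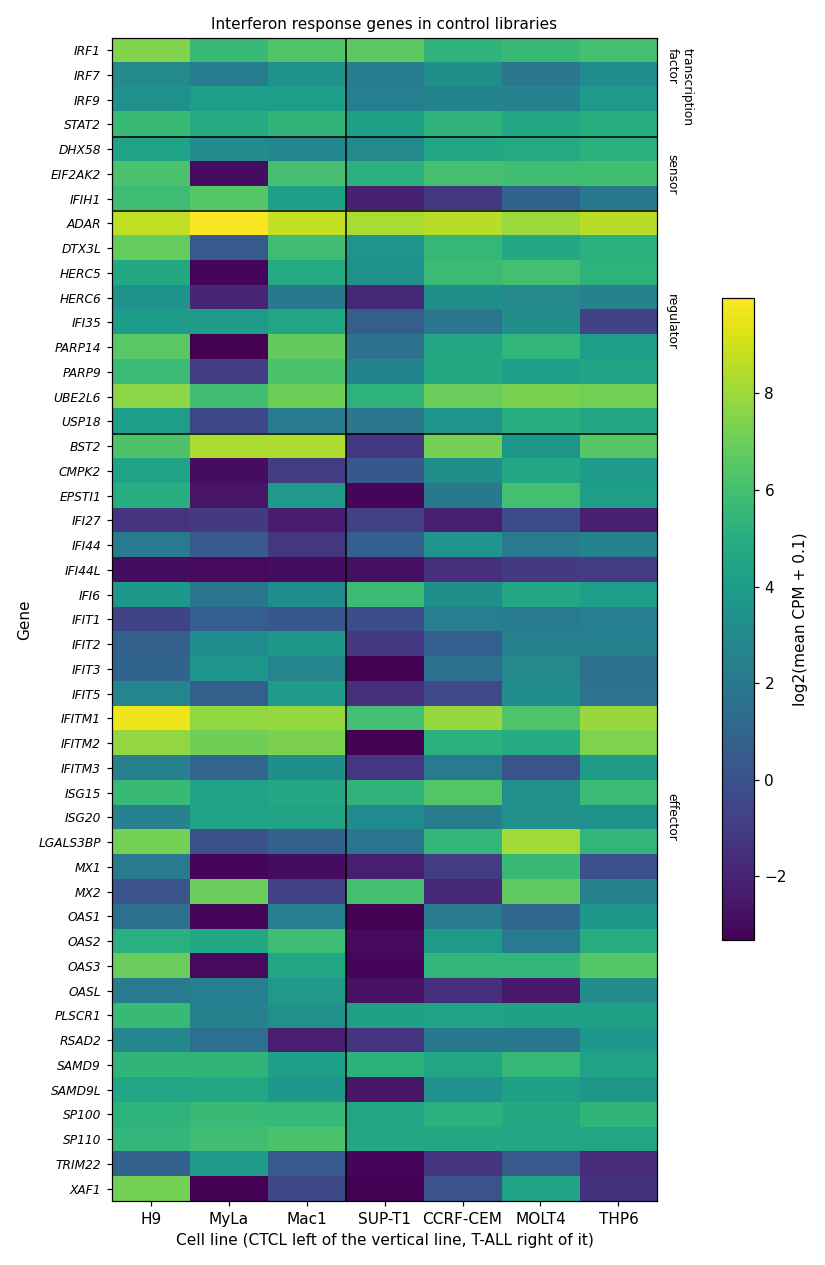
Mean level of each interferon response gene in the control libraries of each line, as log2(CPM + 0.1), with genes (rows) grouped by role and lines in columns. Dark cells in MyLa (10 genes under 0.1 CPM) and SUP-T1 (11 genes under 0.1 CPM) stand out against the other lines, where at most 2 genes were that low.

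The genes at the lowest levels were partly different in the 2 low lines. In MyLa, CMPK2, EIF2AK2, EPSTI1, HERC5, IFI44L, MX1, OAS1, OAS3, PARP14 and XAF1 averaged under 0.1 CPM. In SUP-T1, EPSTI1, IFI44L, IFIT3, IFITM2, OAS1, OAS2, OAS3, OASL, SAMD9L, TRIM22 and XAF1 did. EIF2AK2 encodes PKR, the kinase that halts translation when it binds double-stranded RNA. It averaged 0.0374 CPM in MyLa controls, from 3 counts in 3 libraries, and between 34.3 and 69.8 CPM in the controls of each other line.

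Some neighbouring genes were low together in MyLa and some were not. PARP9 and DTX3L adjoin on chromosome 3, and PARP14 starts further along, at 122680618, where DTX3L ends at 122575203. The 3 genes encode an ADP-ribosyltransferase family member, its ubiquitin ligase partner and a second family member. Their MyLa controls averaged 0.425, 1.25 and 0 CPM, while H9 controls averaged 52.6, 113 and 94.6 CPM. HERC5, the ligase for the ubiquitin-like modifier ISG15, and its neighbour HERC6 on chromosome 4 averaged 0.012 and 0.161 CPM in MyLa. On chromosome 12, OAS1 and OAS3 averaged 0.012 and 0.0243 CPM in MyLa, while OAS2 beside them averaged 24.4 CPM. CMPK2 averaged 0.0374 CPM and its neighbour RSAD2 averaged 2.80 CPM, and IFI44L averaged 0.0243 CPM and its neighbour IFI44 averaged 1.31 CPM. On chromosome 21 the neighbours MX1 and MX2, both dynamin-like antiviral GTPases, were not low together. MX2 averaged 120 CPM in MyLa controls and MX1 averaged 0.0123 CPM there. MX2 was also high in SUP-T1, at 67.1 CPM, where MX1 was at 0.115 CPM, and both were high in MOLT4, at 104 CPM for MX2 and 51.9 CPM for MX1. The data hold no measurement of DNA methylation or copy number, so the source of these gaps was not tested.

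The widest ranges between lines belonged to 8 genes. IFITM2, which encodes a membrane protein that blocks virus entry, averaged 229 CPM in H9 controls and had 0 counts in SUP-T1 controls, so it was at least 7244-fold higher in H9, against a floor of 3 counts over the SUP-T1 controls. XAF1, whose product binds the apoptosis inhibitor XIAP, averaged 147 CPM in H9 and had 0 counts in MyLa, at least 3935-fold higher in H9 against the MyLa floor. PARP14 averaged 111 CPM in Mac1 and had 0 counts in MyLa, at least 2967-fold higher in Mac1 by the same floor. OAS3, a synthetase of 2-5 oligoadenylates, averaged 120 CPM in H9 and 0.0126 CPM in SUP-T1, from 1 count in SUP-T1. EPSTI1, OAS2, HERC5 and EIF2AK2 completed the 8, each with 1 to 3 counts in its lowest line. The narrowest ranges were those of SP100 (2.13-fold between the highest and the lowest line), STAT2 (2.56-fold), SAMD9 (2.63-fold), IRF7 (2.87-fold) and SP110 (3.16-fold). SP100 and SP110 encode nuclear body proteins, and STAT2 is an ISGF3 subunit. STAT2 averaged 49.6 CPM in H9 and 19.4 CPM in SUP-T1. In all, 16 members reached 1 CPM in the controls of every line, and 2, IFI27 and IFI44L, reached it in none.

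Per kilobase of exon, IFITM1 had the highest level of the 47 genes averaged over the lines, 248 CPM per kb, ahead of BST2 (tetherin, which holds budding virus at the cell surface) at 122 CPM per kb. IFITM1, IFITM2 and IFITM3 share 35.3%, 45.2% and 36.4% of their 31-base words with other genes, mostly with each other, so the split of reads between them is uncertain. The same holds for IRF9 (49.5% shared, mostly with AL136295.5) and USP18 (30.8%, mostly with USP41). Whether reads were counted by strand is not stated, and 14 members overlap an exon of a gene on the other strand. Among them are XAF1, over 38.3% of its exon bases, IRF1, over 28.0%, IFITM3, over 21.3%, and SP110, over 20.9%.

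The levels of CTCL and T-ALL controls were compared over the 7 lines, with the counts of each line summed. No member was called among 47, against 0.28% of the 18565 genes tested. An unadjusted p under 0.05 was reached by 6 members and by 2563 of all genes. DESeq2 called 3 of the 47 members and 8.3% of all genes. The 3 members with the lowest p were SP110 (log2 difference, CTCL over T-ALL, 1.29, SE 0.25, adjusted p = 0.104 by edgeR), IFIH1 (5.11, SE 1.24, adjusted p = 0.161 by edgeR) and IFI44L (-2.97, SE 0.83, adjusted p = 0.196 by edgeR). IFIH1 encodes MDA5, the sensor of long double-stranded RNA. Its controls averaged 56.2, 87.4 and 18.1 CPM in H9, MyLa and Mac1. They averaged 0.129, 0.351, 1.86 and 3.99 CPM in SUP-T1, CCRF-CEM, MOLT4 and THP6. The classes did not overlap, but the gene was picked by its low p in the same libraries.

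The promoters of the members were searched for the ISRE core, written GAAANNGAA and read on both strands, over the 250 bases before and 50 bases after each RefSeq start (assembly GRCh38.p14). A start was found for 38 members. DHX58, IFIT2, IFITM2, IRF7, MX2, OAS2, OASL, TRIM22 and USP18 had no entry. The core occurred in 26 of the 38 members (68.4%), against 9.86% of all 27305 genes with an entry. The GAS element bound by STAT dimers, written TTCNNNGAA, occurred in 12 members (31.6%), against 9.38% of all genes. The GATA element, written GATA with A or T before it and A or G after it, occurred in 15 members (39.5%), against 29.1% of all genes. Genes were counted once, with any of their starts. Promoter stretches of the 200 bases before the start are printed for EPSTI1, CMPK2, LGALS3BP and SP110, which were called in many lines, and for IFIT3, ISG15 and IFI6, which were chosen after their values were seen. Capitals mark the ISRE core, overlapping matches run together.
EPSTI1, chr13:42992242-42992441, minus strand: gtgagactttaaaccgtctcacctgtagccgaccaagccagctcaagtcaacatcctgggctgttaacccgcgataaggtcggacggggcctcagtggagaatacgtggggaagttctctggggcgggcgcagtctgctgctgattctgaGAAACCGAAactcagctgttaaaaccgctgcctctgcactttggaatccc
CMPK2, chr2:6866636-6866835, minus strand: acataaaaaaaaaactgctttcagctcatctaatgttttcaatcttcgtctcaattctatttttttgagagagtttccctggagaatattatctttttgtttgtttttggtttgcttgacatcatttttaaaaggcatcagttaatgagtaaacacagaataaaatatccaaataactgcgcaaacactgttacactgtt
LGALS3BP, chr17:78979924-78980123, minus strand: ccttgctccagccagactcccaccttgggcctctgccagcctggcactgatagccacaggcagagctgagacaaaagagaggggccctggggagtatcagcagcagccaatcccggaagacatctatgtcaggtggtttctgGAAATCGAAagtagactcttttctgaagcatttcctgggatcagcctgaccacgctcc
SP110, chr2:230225637-230225836, minus strand: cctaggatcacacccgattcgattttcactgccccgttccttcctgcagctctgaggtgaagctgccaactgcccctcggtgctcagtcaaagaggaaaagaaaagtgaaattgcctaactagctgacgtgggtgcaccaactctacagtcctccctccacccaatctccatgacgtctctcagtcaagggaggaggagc
IFIT3, chr10:89332329-89332528, plus strand: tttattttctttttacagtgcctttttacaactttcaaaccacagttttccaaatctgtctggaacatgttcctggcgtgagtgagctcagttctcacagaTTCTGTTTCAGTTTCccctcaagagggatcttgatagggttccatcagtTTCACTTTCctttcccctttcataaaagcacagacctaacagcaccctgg
ISG15, chr1:1013297-1013496, plus strand: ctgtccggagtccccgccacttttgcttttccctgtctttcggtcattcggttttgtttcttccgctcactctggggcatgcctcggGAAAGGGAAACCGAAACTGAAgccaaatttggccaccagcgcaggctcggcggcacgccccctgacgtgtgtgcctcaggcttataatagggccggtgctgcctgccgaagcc
IFI6, chr1:27672193-27672392, minus strand: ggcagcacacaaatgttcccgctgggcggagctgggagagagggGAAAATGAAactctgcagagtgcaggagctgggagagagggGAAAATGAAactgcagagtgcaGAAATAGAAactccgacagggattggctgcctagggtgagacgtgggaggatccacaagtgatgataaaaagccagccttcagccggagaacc
EPSTI1 has 1 core at position -50 from its start and LGALS3BP has 1 at -58. The ISG15 cores overlap in a single run that starts at -113, IFIT3 has cores at -99 and -50, and IFI6 has 3 between -156 and -93. CMPK2 and SP110 have no core in the stretches shown. Of the 3 CMPK2 starts, 1 other has a core at 5 bases after the start. A match is a description of letters, and no binding was measured here.

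The knockdown was then compared with control in each line. Its effect on the module had no common direction. Members were called in every line, but higher in some and lower in others. In MOLT4 29 members were higher and 4 lower, in Mac1 13 were higher and none lower, and in CCRF-CEM 4 were higher and 9 lower. In SUP-T1, by label, 6 were higher and 4 lower, in THP6 4 and 2, in MyLa 3 and 2, and in H9 0 and 3. The median log2 fold change of the 47 members was 0.54 in MOLT4, 0.34 in Mac1, 0.13 in THP6, 0.03 in MyLa, 0.02 in CCRF-CEM, -0.04 in SUP-T1 and -0.08 in H9, and that of all genes was 0 in each line.

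**Figure D2:**
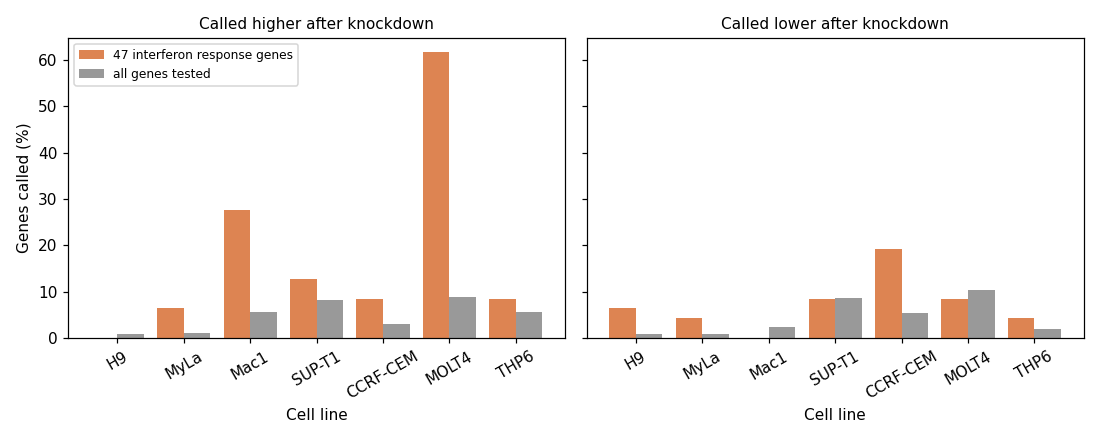
Share of the 47 interferon response genes and of all 21138 genes tested that were called higher (left) and lower (right) in knockdown than in control libraries of each line, in percent. The bar for MOLT4, 29 of 47 genes higher against 8.88% of all genes, stands above the other 6 lines.

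**Figure D3:**
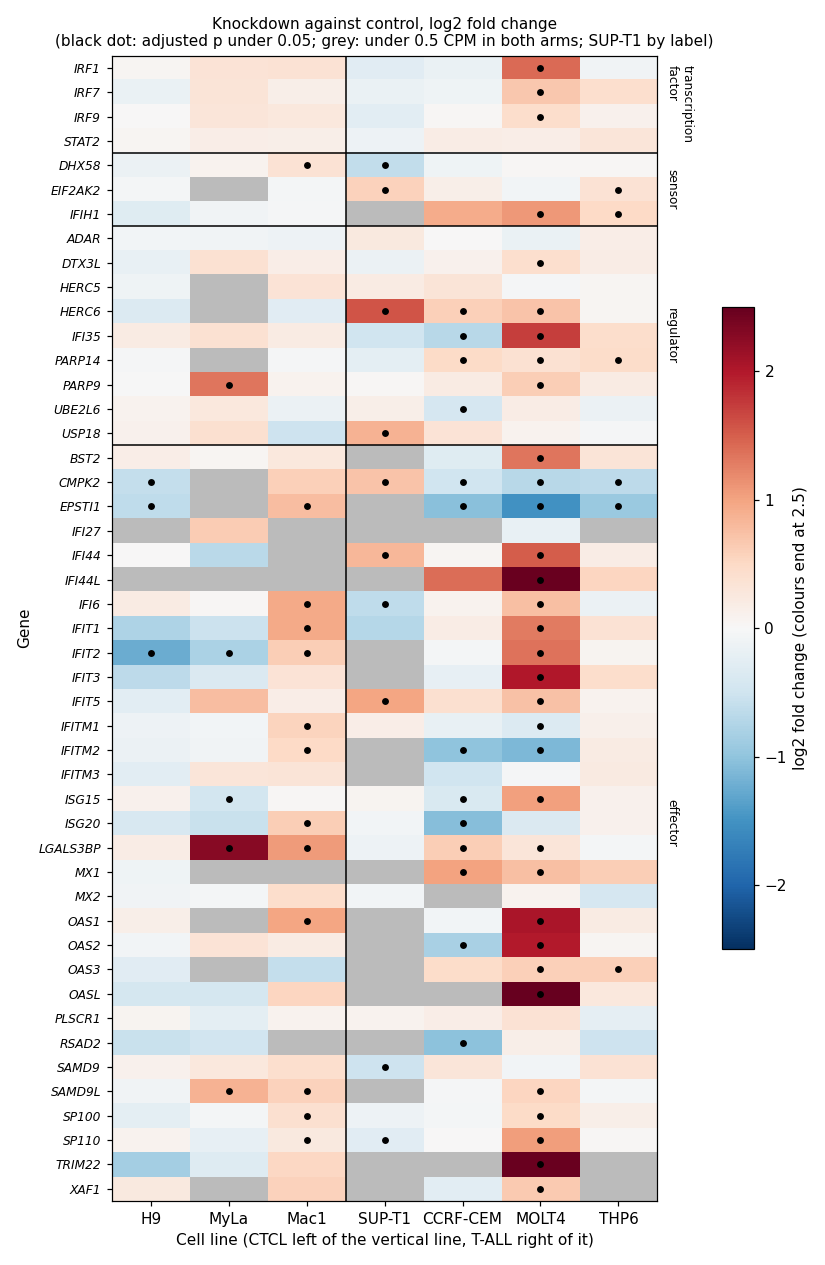
Log2 fold change of each gene, knockdown over control, in each line, with genes in rows grouped by role. Black dots mark adjusted p under 0.05, and 43 of 329 cells are grey because neither arm averaged 0.5 CPM. Most dotted cells in the MOLT4 column and all in the Mac1 column are red, while EPSTI1 and CMPK2 are blue in MOLT4, CCRF-CEM, THP6 and H9.

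In MOLT4 the module was broadly higher after knockdown. Of the 47 members 29 were called higher, against 8.88% of all genes, and 4 lower, against 10.3%. Of the transcription factors, IRF1, which binds ISRE-like elements, IRF7 and IRF9 were higher. IRF1 was at 137 and 134 CPM in knockdown libraries and 50.1 and 51.5 CPM in control libraries (log2 fold change 1.42, SE 0.12, adjusted p = 6.32e-10 by edgeR). STAT2 was not called (log2 fold change 0.16). Of the sensors, IFIH1 was higher, at 3.87 and 4.07 CPM against 1.44 and 2.28 CPM.

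The effectors held the largest MOLT4 differences. OAS2, a 2-5 oligoadenylate synthetase (chromosome 12, 112978395 to 113011723), was at 17.2 and 18.4 CPM in knockdown and 4.47 and 4.50 CPM in control libraries (log2 fold change 1.99, SE 0.13, adjusted p = 3.01e-12 by edgeR). SP110 was at 50.8 and 49.1 CPM in knockdown and 24.0 and 24.3 CPM in control libraries (1.05, SE 0.077, adjusted p = 2.21e-11 by edgeR). IFIT3, which stabilises the RNA-binding protein IFIT1, was at 30.4 and 30.5 CPM against 7.45 and 7.81 CPM (2.00, SE 0.18, adjusted p = 5.87e-09 by edgeR). In these 3 genes and IRF1 every knockdown library was above every control library. The genes were picked by adjusted p from the same libraries, so this separation adds no support, here and in the other lines. The share of all genes that separate the arms was not counted. OAS1 was at 8.83 and 8.0 CPM in knockdown and 2.09 and 1.98 CPM in control libraries (2.04, SE 0.20, adjusted p = 3.40e-08 by edgeR).

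Related genes were higher together in MOLT4. The 4 IFIT genes of the module, on chromosome 10, were all higher, with log2 fold changes of 1.3 for IFIT1, 1.35 for IFIT2, 2.00 for IFIT3 and 0.73 for IFIT5. The 4 OAS genes of the module were all higher, with 2.04 for OAS1, 1.99 for OAS2, 0.59 for OAS3 and 2.52 for OASL, the last from 30 counts in knockdown and 5 in control libraries. IFI35 (1.72), BST2 (1.34), TRIM22 (2.47), ISG15 (1.02), IFI44 (1.52), IFI44L (2.47) and IFI6 (0.75) were higher too. TRIM22 was at 6.95 and 6.68 CPM in knockdown and 1.33 and 1.12 CPM in control libraries, and 16.2% of its words are shared with other genes. PARP9 (0.62), DTX3L (0.42), PARP14 (0.38), HERC6 (0.72), MX1 (0.76), SAMD9L (0.54), SP100 (0.48), IRF9 (0.45), IRF7 (0.67), LGALS3BP (0.30), XAF1 (0.65) and IFIH1 (1.08) made up the rest with OAS3 and IFIT5.

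In MOLT4 4 members were called lower, a share near that of all genes, and 36 of 47 had a positive log2 fold change. EPSTI1 was at 21.9 and 22.0 CPM in knockdown and 62.0 and 63.3 CPM in control libraries (log2 fold change -1.51, SE 0.16, adjusted p = 4.01e-08 by edgeR). It is an interferon-inducible gene first named for its induction in breast epithelium by stroma. IFITM2 was at 13.6 and 13.4 CPM against 30.8 and 27.9 CPM (log2 fold change -1.12), IFITM1 fell by 0.34 on the log2 scale, and CMPK2, a mitochondrial nucleotide kinase, fell by 0.69. Markers of T cells moved as well in MOLT4, with 8 of 14 higher and 1 lower. CD7 was at 359 CPM in knockdown and 17.6 CPM in control libraries. Their part in the result was not tested. With any 1 of the 4 libraries left out, which leaves 1 library in a group, fewer members and fewer of all genes were called.

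**Figure D4:**
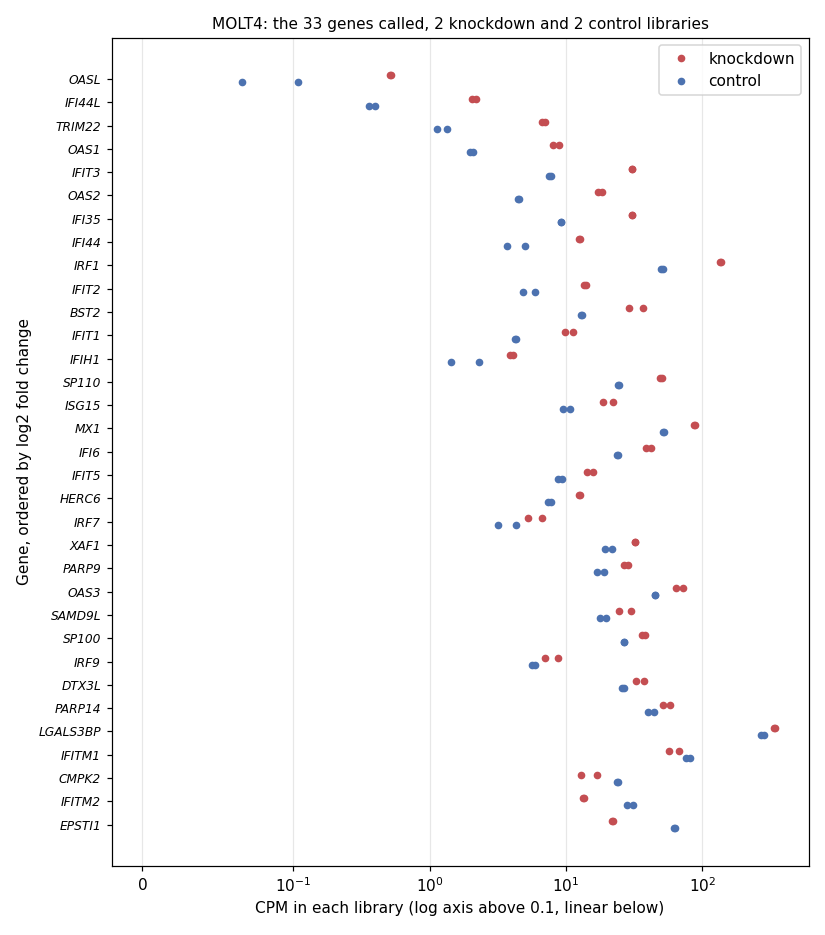
CPM of the 33 called genes in each MOLT4 library (log axis above 0.1 CPM), genes ordered by log2 fold change, with the 2 knockdown libraries in red above the 2 control libraries in blue. The red points lie right of the blue for 29 genes and left of them for IFITM1, CMPK2, IFITM2 and EPSTI1.

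In Mac1 13 members were higher, against 5.54% of all genes, and none lower, against 2.35% of all genes. All but 1 were effectors, and the exception was DHX58, the sensor LGP2 (log2 fold change 0.36). IFI6 was at 17.5 and 16.9 CPM in knockdown and 8.31 and 9.43 CPM in control libraries (0.95, SE 0.14, adjusted p = 2.64e-05 by edgeR). LGALS3BP, a secreted glycoprotein that binds galectin-3, was at 3.12 and 3.73 CPM against 1.38 and 1.88 CPM (1.06, SE 0.15, adjusted p = 2.95e-05 by edgeR). IFITM1 was at 334 and 352 CPM against 220 and 247 CPM (0.56, SE 0.087, adjusted p = 7.54e-05 by edgeR). In these 3 genes the libraries did not overlap.

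OAS1 was at 10.2 and 10.1 CPM in Mac1 knockdown and 4.84 and 5.36 CPM in control libraries (0.99, SE 0.18, adjusted p = 0.000902 by edgeR). EPSTI1 was at 24.6 and 24.0 CPM against 13.1 and 15.6 CPM (0.76, SE 0.16, adjusted p = 0.00286 by edgeR), the reverse of its direction in MOLT4. SAMD9L (0.57), SP100 (0.40), IFIT1 (0.96), IFITM2 (0.49), IFIT2 (0.62), ISG20 (0.62) and SP110 (0.24) were also higher. The 3 Mac1 T cell markers called, TRAC, CD4 and CD247, were higher as well. The fibroblast marker COL1A1 was called higher too, at 1.3 CPM in knockdown and 0.397 CPM in control libraries, and the 5 myeloid markers summed to 64.4 CPM and 42.1 CPM. The part of these markers was not tested. Fewer members and fewer of all genes were called with any 1 library left out, which leaves 1 library in a group.

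In CCRF-CEM the balance of calls lay the other way, with 9 members lower, against 5.43% of all genes, and 4 higher, against 3%. Calls over all genes leaned the same way, with 1148 lower and 635 higher, and 25 of the 47 members had a positive log2 fold change. IFITM2 was at 18.4, 16.0 and 19.0 CPM in knockdown and 32.9, 38.5 and 35.4 CPM in control libraries (log2 fold change -1.0, SE 0.12, adjusted p = 1.93e-06 by edgeR). OAS2 was at 8.72, 8.41 and 8.76 CPM against 16.3, 13.5 and 15.3 CPM (-0.80, SE 0.10, adjusted p = 2.94e-06 by edgeR). EPSTI1 was at 2.09, 1.88 and 2.05 CPM against 4.59, 3.83 and 3.91 CPM (-1.04, SE 0.18, adjusted p = 0.000169 by edgeR). UBE2L6, the conjugating enzyme for ISG15, was at 89.9, 89.1 and 91.6 CPM against 121, 125 and 116 CPM (-0.42, SE 0.073, adjusted p = 0.000187 by edgeR). The knockdown libraries lay below the controls in all 4 genes.

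ISG15 itself fell by 0.39 on the log2 scale in CCRF-CEM, and ISG20, an RNA exonuclease, fell by 1.06. RSAD2, the antiviral protein viperin, fell by 1.02, its neighbour CMPK2 fell by 0.50, and IFI35 fell by 0.70. The 4 higher members were LGALS3BP, HERC6, PARP14 and MX1. LGALS3BP was at 63.4, 70.8 and 68.2 CPM in knockdown and 39.7, 46.7 and 45.1 CPM in control libraries (0.62, SE 0.080, adjusted p = 2.90e-06 by edgeR). HERC6 had a log2 fold change of 0.60, PARP14 of 0.47 and MX1, at 0.815 CPM in knockdown and 0.408 CPM in control libraries, of 1.02. Of the 14 T cell markers 2 were higher and 3 lower in CCRF-CEM, and their part was not tested. Without control library 2, which stood apart from the other controls, 4 members were higher and 7 lower, against 5.39% of all genes called.

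In THP6, 4 members were higher, against 5.56% of all genes, and 2 lower, against 1.84%. EPSTI1 was at 10.8 and 7.26 CPM in knockdown and 17.8, 17.3 and 16.2 CPM in control libraries (log2 fold change -0.92, SE 0.16, adjusted p = 0.000797 by edgeR). CMPK2 was at 11.4 and 8.30 CPM against 15.1, 14.9 and 16.3 CPM (-0.65, SE 0.15, adjusted p = 0.00677 by edgeR). EIF2AK2 was at 80.7 and 77.8 CPM against 58.8, 63.5 and 63.4 CPM (0.36, SE 0.089, adjusted p = 0.0133 by edgeR). These 3 did not overlap between the arms.

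OAS3 was at 93.0 and 176 CPM in THP6 knockdown and 93.2, 84.5 and 89.2 CPM in control libraries (0.59, SE 0.16, adjusted p = 0.0222 by edgeR), so library 2 alone stood above the controls. PARP14 was at 20.6 and 26.8 CPM against 16.6, 18.0 and 17.3 CPM (0.45, SE 0.13, adjusted p = 0.0261 by edgeR), and IFIH1 had a log2 fold change of 0.50. The calls moved with either knockdown library left out, which leaves 1. Without library 2 fewer members and fewer of all genes were called, and without library 1 more of both. Without any 1 control library 3 members were called, against 3.67% to 5.43% of all genes. A fit of THP6 on its own called none of 45 members and 0 genes of all. In that fit 4 members had an unadjusted p under 0.05, against 797 of all 15391 genes. The B cell marker CD79A averaged 13.1 CPM in THP6 knockdown and 9.40 CPM in control libraries and was called higher, and its part was not tested. The THP6 calls rest on 2 knockdown libraries that differ from each other.

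In MyLa, 3 members were higher, against 1.02% of all genes, and 2 lower, against 0.861%. LGALS3BP (chromosome 17, 78971238 to 78980109) was at 4.32, 4.27 and 4.24 CPM in knockdown and 1.01, 0.699 and 0.944 CPM in control libraries (log2 fold change 2.27, SE 0.14, adjusted p = 1.13e-11 by edgeR). SAMD9L, a restriction factor and tumour suppressor, was at 45.5, 43.3 and 43.0 CPM against 24.3, 24.5 and 23.9 CPM (0.86, SE 0.11, adjusted p = 5.23e-06 by edgeR). PARP9 was at 1.02, 0.863 and 1.32 CPM against 0.469, 0.294 and 0.511 CPM (1.33, SE 0.21, adjusted p = 0.000590 by edgeR). All 3 separated the arms.

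IFIT2 was lower in MyLa, at 5.59, 5.43 and 4.12 CPM in knockdown and 9.70, 8.79 and 7.71 CPM in control libraries (-0.79, SE 0.16, adjusted p = 0.00466 by edgeR). ISG15 was at 16.9, 12.4 and 16.6 CPM against 23.3, 20.3 and 19.2 CPM (-0.45, SE 0.12, adjusted p = 0.0429 by edgeR). With DESeq2's size factors 6 members were higher and 1 lower. DESeq2 itself called 13 of 47 members and 2.63% of all genes. A fit of MyLa on its own called 15 of 36 members, of which 11 were higher, and 8.84% of all genes. The T cell markers TRBC1 and CD3E were called higher in MyLa, at 6.31 and 0.529 CPM in knockdown and 3.92 and 0.162 CPM in control libraries, and their part was not tested. Without knockdown library 3 the count was 3, against 0.96% of all genes.

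In H9 no member was higher, against 0.852% of all genes, and 3 were lower, against 0.965%. IFIT2 was at 0.621, 0.695 and 0.667 CPM in knockdown and 1.78 and 1.35 CPM in control libraries (log2 fold change -1.23, SE 0.26, adjusted p = 0.00550 by edgeR). EPSTI1 was at 20.2, 19.9 and 19.7 CPM against 31.8 and 29.8 CPM (-0.63, SE 0.15, adjusted p = 0.0153 by edgeR). CMPK2 was at 14, 12.6 and 13.7 CPM against 20.6 and 20.2 CPM (-0.60, SE 0.14, adjusted p = 0.0155 by edgeR). Knockdown libraries were below both controls in each. The T cell marker CD28 averaged 17.3 CPM in H9 knockdown and 4.19 CPM in control libraries (2.05, SE 0.16, adjusted p = 1.15e-08 by edgeR), TRAC was also called higher (0.36), and their part was not tested. With either control library left out, which leaves 1, fewer members and fewer of all genes were called.

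In SUP-T1, where GATA3 was the higher in the libraries labelled knockdown, 6 members were higher there, against 8.14% of all genes, and 4 lower, against 8.57%. The share called lower is near that of all genes. EIF2AK2 was at 52.2, 51.3 and 49.1 CPM in libraries labelled knockdown and 35.6, 33.5 and 33.9 CPM in libraries labelled control (log2 fold change 0.57, SE 0.082, adjusted p = 7.29e-06 by edgeR). USP18, which removes ISG15 and blocks the interferon receptor, was at 6.57, 7.23 and 6.43 CPM against 3.60, 3.70 and 3.80 CPM (0.87, SE 0.13, adjusted p = 1.52e-05 by edgeR). HERC6 (1.58), CMPK2 (0.71), IFI44 (0.84) and IFIT5 (0.98) were also higher.

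DHX58 was lower in SUP-T1, at 4.87, 4.81 and 5.08 CPM in libraries labelled knockdown and 7.46, 7.88 and 7.22 CPM in those labelled control (-0.61, SE 0.091, adjusted p = 1.04e-05 by edgeR). IFI6 was at 36.7, 35.8 and 29.3 CPM against 48.2, 51.3 and 59.3 CPM (-0.64, SE 0.10, adjusted p = 4.42e-05 by edgeR). SAMD9 fell by 0.51 and SP110 fell by 0.28 on the log2 scale. Of the 14 T cell markers 6 were lower and 1 higher in the libraries labelled knockdown, and their part was not tested.

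Whether the response itself differed between lines was tested with 1 F test per gene over the 7 log2 fold changes. It was called for 38 of 47 members (80.9%), against 35.2% of all genes. Without SUP-T1 it was called for 31, against 22.1% of all genes. The members with the lowest p were OAS2 (adjusted p = 4.43e-11 by edgeR), LGALS3BP (2.93e-10), SP110 (7.33e-10), IRF1 (3.56e-08) and IFIT3 (2.39e-07). ADAR, HERC5, IFI27, IFI44L, IFITM3, MX2, PLSCR1, STAT2 and XAF1 were not called.

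The spread behind the test was large for OAS2. Its log2 fold change was 1.99 in MOLT4 and -0.80 in CCRF-CEM, and lay between -0.32 and 0.34 in the 5 other lines, where it was not called. IRF1 had 1.42 in MOLT4 and values between -0.27 and 0.36 in the 6 other lines, none of them called. LGALS3BP had 2.27 in MyLa, 1.06 in Mac1, 0.62 in CCRF-CEM and 0.30 in MOLT4, which were called, and 0.19, -0.13 and -0.04 in H9, SUP-T1 and THP6, which were not. Its control level was 276 CPM in MOLT4 and 0.884 CPM in MyLa. IFIT3 had 0 counts in every SUP-T1 library.

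Members were sorted by the number of lines in which they were called, which was not done for all genes. The number was 0 lines for 7 members, 1 for 14, 2 for 15, 3 for 7, 4 for 2 and 5 for 2. EPSTI1 was called in 5 lines. It was lower in H9, CCRF-CEM, MOLT4 and THP6 and higher in Mac1, and its mean was under 0.1 CPM in both arms of MyLa and SUP-T1. CMPK2 was also called in 5 lines. It was lower in H9, CCRF-CEM, MOLT4 and THP6, and in SUP-T1 it was higher under the knockdown label, where GATA3 was higher. LGALS3BP was called higher in 4 lines and lower in none. IFIT2 was called in 4 lines, higher in Mac1 and MOLT4 and lower in H9 and MyLa.

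Opposite calls were found for some members, and the share of all genes with opposite calls was not counted. In all, 12 members were called higher in at least 1 line and lower in at least 1 other, among them SP110, IFITM2, ISG15, IFI6, OAS2, IFI35, DHX58, IFITM1 and ISG20. Of the 12, CMPK2, DHX58, IFI6 and SP110 were opposite only through SUP-T1, and 8 were without that line. EIF2AK2, HERC6, IFI44 and IFIT5 were higher under the SUP-T1 knockdown label and in at least 1 other line. Another 28 were called in 1 direction only. The 7 called in no line were HERC5, ADAR, STAT2, MX2, IFI27, PLSCR1 and IFITM3. ADAR, which edits double-stranded RNA, had log2 fold changes between -0.17 and 0.24, and STAT2 between -0.13 and 0.31. All 4 transcription factors were without a call outside MOLT4.

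**Figure D5:**
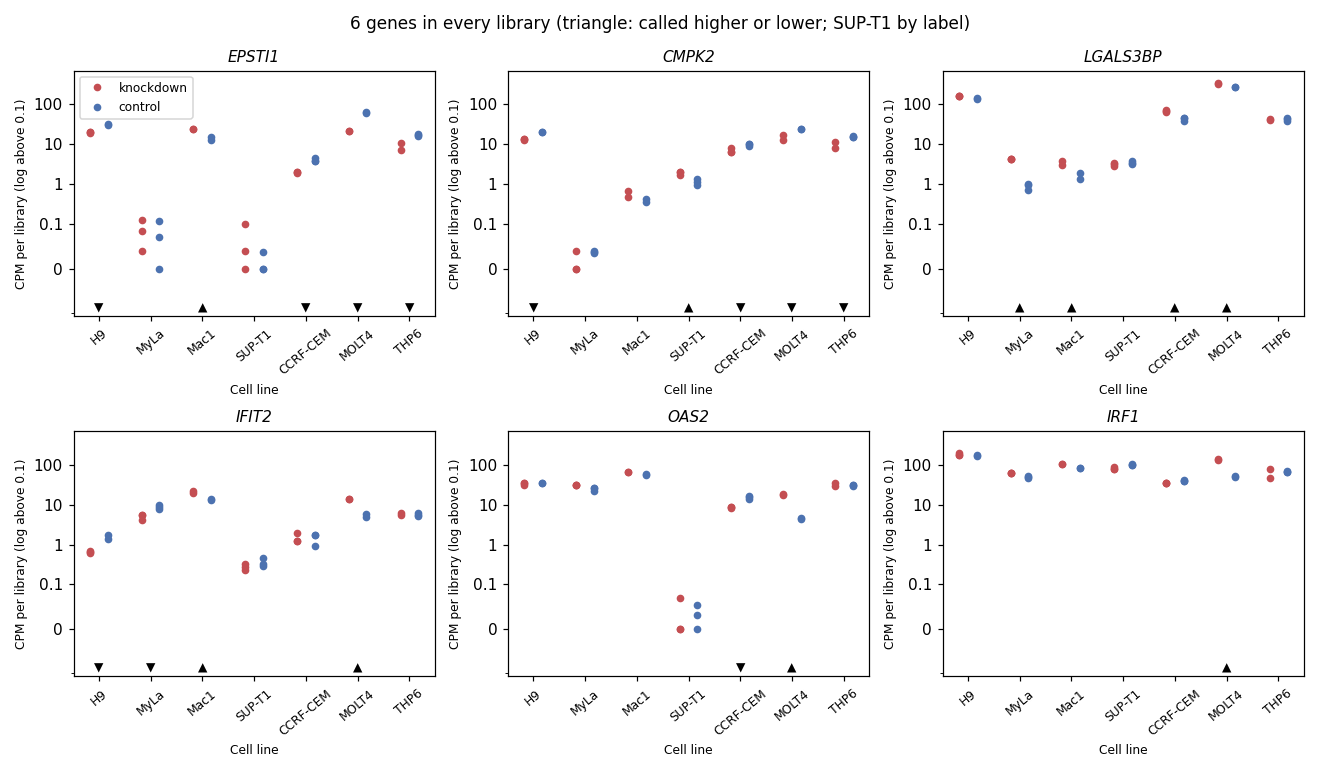
CPM of EPSTI1, CMPK2, LGALS3BP, IFIT2, OAS2 and IRF1 in each library of the 7 lines (log axis above 0.1 CPM), knockdown in red left of control in blue, with triangles for calls up or down. EPSTI1 and CMPK2 point down in H9, CCRF-CEM, MOLT4 and THP6, LGALS3BP points up in 4 lines, and IFIT2 and OAS2 point both ways.

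A mean response over the 7 lines was fitted to counts summed per line and arm, with line as a covariate. No member was called among the 46 tested, and none of all 17382 genes was either, a share of 0%. Of the members 2 had an unadjusted p under 0.05, against 449 of all 17382 genes, and DESeq2 called none of the members. Without SUP-T1, where GATA3 went against the labels, no member was called either, and edgeR called 3 genes of all. An unadjusted p under 0.05 was then reached by 10 of 47 members, against 1141 of all 17644 genes. With SUP-T1 in, the lowest p belonged to IFIT5 (log2 fold change 0.38, SE 0.16 and edgeR adjusted p = 1), LGALS3BP (0.52, SE 0.22 and edgeR adjusted p = 1) and PARP9 (0.28, SE 0.13 and edgeR adjusted p = 1).

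Other genes of the pathway were read from lists. Of 27 interferon and receptor genes 7 were tested, and the type I ligands were nearly without counts. IFNB1 had 0 counts in every library of H9, MyLa and CCRF-CEM, and most in THP6, with 5 counts in knockdown and 6 in control libraries. IFNG, the type II interferon, was at 14.1 CPM in Mac1 knockdown and 8.49 CPM in Mac1 control libraries, and was not called. The receptor chain IFNAR1 averaged 51.5 to 81.3 CPM in the knockdown and 54.0 to 79.2 CPM in the control libraries of the 7 lines and was called in none. IFNAR2 was higher in MOLT4, at 74.0 CPM against 51.7 CPM, and lower in SUP-T1, at 32.8 CPM in libraries labelled knockdown against 52.3 CPM in those labelled control.

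Further signalling and transcription factor genes were called in Mac1, CCRF-CEM, MOLT4 and THP6. STAT3, a relay of many other cytokine receptors, averaged 261 CPM in knockdown and 471 CPM in control libraries of MOLT4 (-0.85, SE 0.090, adjusted p = 3.50e-08 by edgeR), and was higher in Mac1, at 943 CPM in knockdown and 718 CPM in control libraries. IRF8 was called higher in CCRF-CEM, at 0.241, 0.101 and 0.0772 CPM in knockdown and 0.0386, 0 and 0 CPM in control libraries, and IRF2 in MOLT4, while IRF5 was lower in MOLT4 and THP6.

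The feedback list of 6 genes had 4 higher in Mac1, against 5.54% of all genes, and 3 higher in MOLT4, against 8.88%. None was lower in either line, against 2.35% of all genes in Mac1 and 10.3% in MOLT4. SOCS1, an inhibitor of JAK kinases, was at 12.1 and 11.8 CPM in MOLT4 knockdown and 2.81 and 3.31 CPM in control libraries (1.96, SE 0.12, adjusted p = 2.22e-12 by edgeR). In Mac1 SOCS1 was at 207 and 200 CPM against 123 and 135 CPM, and SOCS3, CISH and PTPN6 were also higher. SUP-T1 had SOCS1 and CISH higher and SOCS3 lower by label. CCRF-CEM had PTPN2 higher and PTPN6 lower, and H9, MyLa and THP6 had no call.

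Of 18 genes of nucleic acid sensing 17 were tested, with 4 higher and 2 lower in MOLT4, against 8.88% and 10.3% of all genes. The shares of all genes called in the other lines are given with each line above. In MOLT4, TMEM173 (STING), TLR3, IKBKE and DDX58 (RIG-I) were higher and the adaptors TICAM1 and MYD88 lower, while SUP-T1 had TICAM1 and MYD88 higher by label. MyLa had TLR7 and IKBKE higher and TLR3 lower, Mac1 had TLR8 higher, THP6 had TREX1 and SAMHD1 higher, and CCRF-CEM had IKBKE and TMEM173 lower. H9 had none.

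Of 32 other interferon-stimulated genes, 14 were higher and 2 lower in MOLT4, against 8.88% and 10.3% of all genes. In Mac1 9 were higher and 1 lower, against 5.54% and 2.35% of all genes. SUP-T1 by label had 7 and 6, against 8.14% and 8.57%, and THP6 had 5 and 0, against 5.56% and 1.84%. CCRF-CEM had 2 and 4, against 3% and 5.43%. H9 had 2 and 0, against 0.852% and 0.965%, and MyLa had 2 and 0, against 1.02% and 0.861%. PSMB9, an immunoproteasome subunit, was at 74.7 and 71.8 CPM in MOLT4 knockdown and 24.7 and 24.9 CPM in control libraries (1.56, SE 0.093, adjusted p = 4.13e-13 by edgeR). TAP1, the peptide transporter, was at 109 and 110 CPM against 56.9 and 56.3 CPM (0.95, SE 0.060, adjusted p = 1.38e-12 by edgeR). CXCL10, a chemokine, was at 130 and 100.1 CPM in Mac1 knockdown and 41.2 and 47.3 CPM in control libraries (1.38, SE 0.13, adjusted p = 7.44e-07 by edgeR). APOBEC3G, a cytidine deaminase that restricts retroviruses, was called in 6 lines. It was higher in H9 (101, 109 and 102 CPM in knockdown, 60.6 and 62.7 CPM in control libraries), Mac1, MOLT4, THP6 and SUP-T1 by label, and lower in CCRF-CEM. In THP6, ZC3HAV1 (68.3 and 201 CPM in knockdown libraries), HELZ2 (21.3 and 65.8 CPM) and RNF213 (78.5 and 175 CPM) were called higher with knockdown library 2 well above library 1.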

How the data were processed

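RNA was measured in 36 libraries, 18 labelled knockdown and 18 labelled control, from 7 cell lines. Per the labels' protocols, 50 ng of total RNA was enriched for poly(A) RNA and made into libraries. The submitters' processing notes name cutadapt 2.3, STAR 2.7.8a and RSEM 1.3.3 and the build GRCh38. Annotation release and strand setting: not given in the sources used here. The authors deposited expected counts per gene, already whole numbers, for 60628 identifiers, of which 58516 are in GENCODE 29, used for coordinates.

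Genes were tested with edgeR 4.0.16 (quasi-likelihood F test, TMM scaling, filterByExpr, 14 groups in 1 fit, 22 residual degrees of freedom), with Benjamini-Hochberg adjustment over the 21138 genes kept. The common dispersion was 0.0118. CPM are TMM-scaled counts. The mean response and the CTCL comparison used counts summed per line. Scripts were tested on simulated data. DESeq2 1.42.0 and the other alternatives are given at the end. With a library left out, the dispersion trend of the full fit was kept. Library totals of 18624330 to 50626644 counts set the precision, mitochondrial genes took 0.568% to 4.26% of counts, and fold bounds use a floor of 3 counts over a group's controls, which covers counting error only.

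The 47 members, the pathway lists and the tests were chosen with earlier results of these data known. In each line every called member is named, and up to 5 with the lowest adjusted p and at least 1 CPM in the higher arm are given by library. At baseline the 8 largest and 5 smallest ratios between lines are named, between lines the 5 lowest p and the members called in most lines, and over lines and classes the 3 lowest p where none was called. Pathway genes are named where called, except a few that are not reported here. No 2 libraries of a group agreed within sampling noise (mean chi-square at least 3.67).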

Additional observations from a re-analysis of the deposited data

Results flagged for a closer look

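The response to the knockdown label differed between the 7 lines for 38 of the 47 genes, against 35.2% of all genes. This was 1 F test per gene over the 7 log2 fold changes. The lowest adjusted p-values by edgeR were 4.43e-11 for OAS2, 2.93e-10 for LGALS3BP, 7.33e-10 for SP110, 3.56e-08 for IRF1 and 2.39e-07 for IFIT3. For OAS2, SP110, IRF1 and IFIT3 the MOLT4 value was the highest of the 7, and for LGALS3BP the MyLa value was. No group held 4 or more libraries, so single libraries could not be tested as outliers.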

How the results depend on the processing

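The log2 fold changes of the called members and of GATA3 were followed through the alternatives run, and none changed sign. Those of other named genes were not followed. The split of higher and lower calls did move: SUP-T1, with 6 and 4, had 5 and 6 without the library labelled knockdown 2, and Mac1, with none lower, had 1 lower with no filter, with DESeq2 and with the line fitted on its own. The count of called members moved by over 1.5 times as follows. In MyLa, where 5 were called, it was 8 with no filter, 15 with the line fitted on its own and 13 with DESeq2. In THP6, where 6 were called, it was 3 with a log2 fold change of at least 0.5 required and 0 with the line fitted on its own. For the mean response, with libraries as replicates, it was 9 (5.08% of all genes), and for CTCL against T-ALL it was 41 with libraries as replicates (62.8% of all genes), 3 with DESeq2 (8.3%) and 1 without the line H9 (1.7%), where none were called. The cause was not tested. With 1 library left out, the counts lay between 0 and 3 in H9, 3 and 5 in MyLa, 5 and 10 in Mac1, 8 and 11 in SUP-T1, 9 and 13 in CCRF-CEM, 25 and 26 in MOLT4, 0 and 21 in THP6, and 35 and 44 for the difference between lines. Deviations of same-numbered libraries were little correlated (17 correlations from -0.0596 to 0.0937). In Mac1 and in MOLT4 the 2 values are equal by construction. With 2 or 3 libraries per group this cannot exclude pairing by number, which the main fit did not use. With the replicate block the count of called members was 1 in H9, where 3 were called, and 1 in THP6, where 6 were called. The calls of single genes were followed for the called members and GATA3, pooled with the 5 lowest p of the test between lines. Some lost their call when a library was left out. With the replicate block 14 lost it, with lines fitted alone 12, with no filter 6, with DESeq2 2 and with its size factors 2. Over all genes the count of calls ranged from 108 to 592 in H9, 197 to 1374 in MyLa, 585 to 2752 in Mac1, 2586 to 4371 in SUP-T1, 1090 to 2147 in CCRF-CEM, 2349 to 6797 in MOLT4, 0 to 7758 in THP6, 4610 to 11829 between lines, 0 to 1073 for the mean response and 12 to 13268 for CTCL against T-ALL. Genes with few counts in a line, such as OASL in MOLT4, are limited by depth.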
